A study of Mus musculus with 18 samples.

Results

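Amino acid and transmitter uptake transporters were followed in the dorsal horn of the mouse lumbar spinal cord after hindpaw inflammation. Members were all genes whose single name in the 3 expression tables begins with Slc1a, Slc3a, Slc6a, Slc7a, Slc36a, Slc38a or Slc43a. Their names numbered 53, and 48 of them reached 0.5 FPKM (fragments per gene, scaled by transcript length and sequencing depth) in at least 1 group and are described here. Over the whole series, 18182 genes had a single name at overlapping places in all 3 tables, and 16707 of these reached the same level. Just inside that limit were Slc6a20b with a highest value of 0.532 FPKM and Slc6a12 with 0.568 FPKM, and just outside it were Slc36a1os with 0.409 FPKM and Slc6a19 with 0.404 FPKM. The other names below the limit were Slc43a1, Slc38a4 and the serotonin transporter gene Slc6a4. Of the 48, Slc7a6os encodes no transporter and was counted but set apart from the roles.

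The study used C57BL/6 mice (C57BL/6N by its methods) of 3 months whose dorsal horn had received a recombinant adeno-associated virus on both sides, with 3 mice in each of 6 groups. The virus carried LacZ, a bacterial enzyme that serves as the control cargo, HDAC4 wt, the unaltered class IIa histone deacetylase, or HDAC4 3SA, a mutant that cannot be phosphorylated at its export sites and so stays in the nucleus. Each vector was paired with a saline injection into the paw or with complete Freund's adjuvant (CFA), an emulsion that inflames it, and the dorsal spinal cord was taken 24 h later for poly-A RNA sequencing. All groups had therefore had surgery and a virus, the promoter that drives the cargo is not given in the sources used here, and the tissue piece holds transduced and untransduced cells alike. Each table gave a single FPKM value per group of 3 mice, so no spread between mice can be computed and no test was made here, and each difference below describes those group values alone. In the text, pairs of values are saline first and CFA second. A change is the log2 ratio of CFA over saline after 0.1 FPKM was added to both, and a gene is said to be past the fold where that ratio lies beyond 0.5 in either direction, a ratio of 1.41.

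Transporters of these families clear transmitters from the synaptic cleft and carry amino acids across the membranes of neurons, glia and vessels. Glutamate is taken up mainly by astrocytes, which turn it into glutamine and hand that back to neurons, while glycine and GABA, the inhibitory transmitters of the dorsal horn, are recovered by neurons and glia through sodium and chloride coupled carriers. Exchangers built from a heavy chain and a light chain move neutral, cationic or acidic amino acids, some of which also act as signals.

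The start regions of 3 genes are shown because their genes were past the fold in at least 1 vector and have a single annotated start near the first base of their row. Each runs from 250 bases before the start site to 50 bases from it on, taken from RefSeq on build GRCm38.p6, and capitals mark the 50 bases from the start site on. The Slc38a5 window lies at chrX:8271131-8271430 on the plus strand, the Slc7a8 window at chr14:54781837-54782136 on the minus strand, and the Slc6a20a window at chr9:123678783-123679082 on the minus strand.
Slc38a5: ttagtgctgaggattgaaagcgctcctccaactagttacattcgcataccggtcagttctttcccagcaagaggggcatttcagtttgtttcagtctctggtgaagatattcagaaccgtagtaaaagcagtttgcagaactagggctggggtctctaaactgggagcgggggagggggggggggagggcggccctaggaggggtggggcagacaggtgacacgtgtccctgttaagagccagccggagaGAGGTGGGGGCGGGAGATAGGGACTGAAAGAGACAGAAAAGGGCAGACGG
Slc7a8: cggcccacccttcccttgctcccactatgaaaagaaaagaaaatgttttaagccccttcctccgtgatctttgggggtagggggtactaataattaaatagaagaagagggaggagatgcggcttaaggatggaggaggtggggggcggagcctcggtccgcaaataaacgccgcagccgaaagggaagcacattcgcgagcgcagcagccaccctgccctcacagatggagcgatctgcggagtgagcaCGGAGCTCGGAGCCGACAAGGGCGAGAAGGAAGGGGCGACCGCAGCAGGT
Slc6a20a: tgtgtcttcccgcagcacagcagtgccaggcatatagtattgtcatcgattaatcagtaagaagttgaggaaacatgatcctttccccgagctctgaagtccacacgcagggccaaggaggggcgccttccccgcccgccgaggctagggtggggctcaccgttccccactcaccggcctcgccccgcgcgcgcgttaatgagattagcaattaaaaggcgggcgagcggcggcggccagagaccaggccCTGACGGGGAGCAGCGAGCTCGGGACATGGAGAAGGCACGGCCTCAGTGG
The Slc38a5 window was 56.0% G or C with 10 CpG dinucleotides, that of Slc7a8 was 58.0% with 20, and that of Slc6a20a was 62.3% with 25. Over all 32851 windows of the same length the medians were 52.7% and 7. Motifs searched on both strands were TGANTCA of AP-1, TTCNNNGAA of STAT factors, TGATGNAA of the amino acid response element, and the NF-kB and MEF2 motifs. None of these letters lay in the printed windows. Of all windows, 7.81% held the AP-1 motif, 8.30% the STAT motif, 3.97% the amino acid response element, 8.46% the NF-kB motif and 3.19% the MEF2 motif. Of the 50 windows of described members, several of which belong to the same gene and overlap, 7 held the AP-1 motif, 4 the STAT motif, 4 the amino acid response element, 9 the NF-kB motif and 2 the MEF2 motif. Among genes past the fold, matches lay in windows of Slc6a12 (AP-1 and NF-kB) and of Slc7a7 (NF-kB and the amino acid response element), genes with several annotated starts. Of the 48 genes 33 had a window in the table, and among the 9 past the fold those without one were Slc7a2, Slc43a3 and Slc36a2.

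Most transporters kept to nearly the same level after CFA. Within a log2 ratio of 0.3 were 42 of 48 genes with LacZ, 44 with HDAC4 wt and 35 with HDAC4 3SA, beside 84.1%, 80.5% and 73.2% of all genes. Slc38a5 was the only one past the fold in the same direction in all 3 vectors, and the genes past the fold were almost all expressed below 10 FPKM. In LacZ, 5 of 48 genes (10.4%) were past the fold with CFA higher, against 5.35% of all 16707 genes, and 0 were past it with CFA lower, against 2.97%. In HDAC4 wt, 2 genes (4.17%) were higher, against 5.63% of all genes, and 0 were lower, against 3.82%. In HDAC4 3SA, 5 genes (10.4%) were higher, against 10.1%, and 2 (4.17%) were lower, against 3.77%. The shares with HDAC4 wt and HDAC4 3SA were thus close to those of all genes, and the share of higher genes with LacZ rests on 5 genes. The median log2 ratio of the 48 genes was -0.01 with LacZ, 0.07 with HDAC4 wt and -0.04 with HDAC4 3SA, beside 0.01, 0.00 and 0.02 over all genes.

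**Figure D1:**
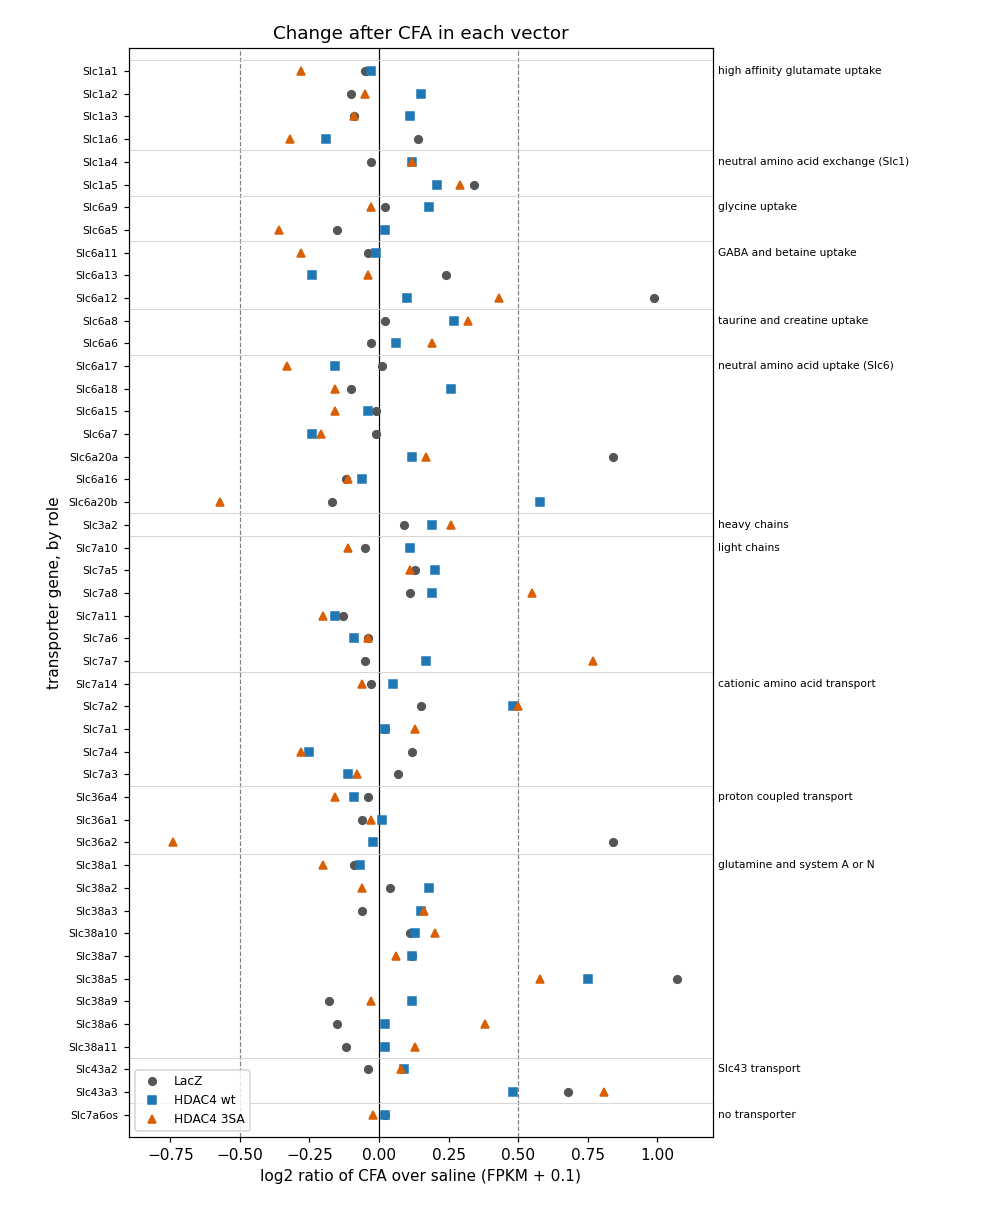
Change of 47 of the 48 genes after CFA, as the log2 ratio of CFA over saline with 0.1 FPKM added, 1 point per vector and gene, with genes ordered by role. Each point is the ratio of 2 group values of 3 mice and has no error bar, the dashed lines stand at 0.5 and -0.5, and Slc38a5 alone lies past the upper line in all 3 vectors.

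Of the 28 genes that reached 10 FPKM in a group, 27 stayed within the fold in all vectors, and the exception was Slc7a2. Of all genes at that level 13.1% were past the fold in at least 1 vector. Of the 20 genes below 10 FPKM, 8 were past it in at least 1 vector, against 28.3% of all genes below that level. Across vectors, 13 genes (27.1%) were higher after CFA in all 3, against 24.1% of all genes, and 9 (18.8%) were lower in all 3, against 18.7%. The single gene past the fold and higher in all 3, Slc38a5, made up 2.08% of the members, where 0.73% of all genes met the same rule. The vectors share no mice, since each had its own saline group. The directions matched in 36 of 48 genes between HDAC4 wt and HDAC4 3SA, in 31 between LacZ and HDAC4 3SA and in 25 between LacZ and HDAC4 wt. These are 75.0%, 64.6% and 52.1% of the members, beside 69.8%, 59.4% and 56.0% of all genes.

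**Figure D2:**
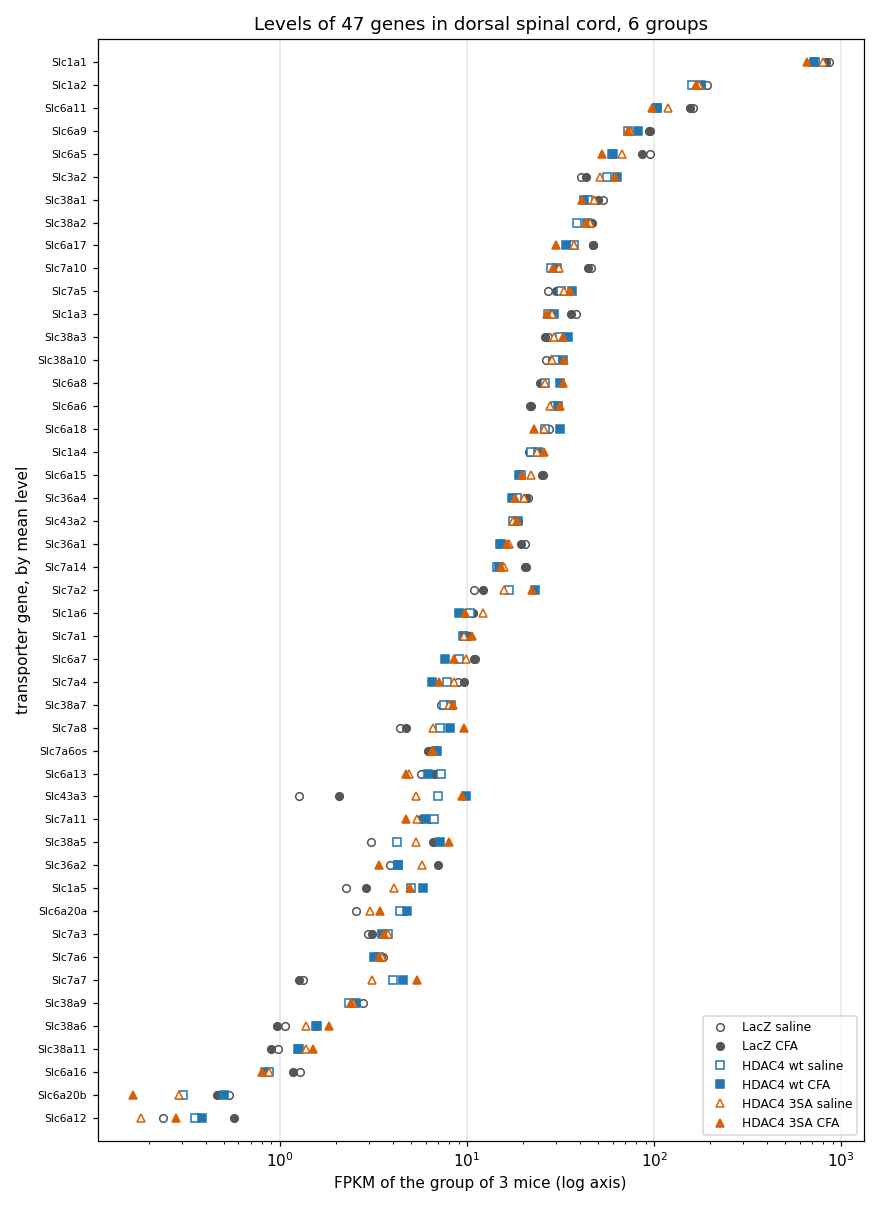
FPKM of 47 of the 48 genes on a log axis, ordered by mean level, with open symbols for saline and filled symbols for CFA in each vector. Each symbol is 1 group value of 3 mice without an error bar, and the 6 values of most genes lie close together, while those of Slc43a3, Slc7a7 and Slc7a8 lie lower with LacZ than in both HDAC4 vectors.

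Among the high affinity glutamate transporters, the main astrocytic carrier Slc1a2 stood at 191 and 178 FPKM with LacZ, 159 and 177 with HDAC4 wt, and 173 and 167 with HDAC4 3SA. Slc1a3, the other astrocytic carrier, had 38.4 and 35.9 FPKM, 27.2 and 29.3, and 28.4 and 26.7 in the same order. Slc1a6, best known from Purkinje cells, had 9.73 and 10.8 FPKM, 10.4 and 9.06, and 12.1 and 9.70. All 4 described carriers of this role were lower after CFA with HDAC4 3SA, with log2 ratios from -0.32 to -0.05 and none past the fold, and 3 of 4 were lower with LacZ. With HDAC4 wt 2 were lower and 2 higher, and the 4 include the Slc1a1 row described next. Higher after CFA were 53.1% of all genes with LacZ, 51.3% with HDAC4 wt and 53.4% with HDAC4 3SA. The row named for Slc1a1, the neuronal carrier, was the highest of all members, at 857 and 829 FPKM with LacZ, 727 and 714 with HDAC4 wt, and 798 and 656 with HDAC4 3SA, with log2 ratios of -0.05, -0.03 and -0.28. An intron of Slc1a1 holds Gm5822, a processed pseudogene on the opposite strand at chr19:28862330-28863707, whose transcript matched that of Eef1a1, a translation elongation factor, at 94.7% over 1390 aligned bases. The row of Eef1a1 itself had 284 and 309 FPKM with LacZ, 495 and 531 with HDAC4 wt, and 429 and 534 with HDAC4 3SA. Whether reads of that pseudogene or of Eef1a1 entered the Slc1a1 row was not tested, and sums are given below without it.

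Both glycine carriers of the cord were high. Slc6a9, the glial glycine transporter, stood at 94.1 and 95.1 FPKM with LacZ, 72.7 and 82.3 with HDAC4 wt, and 74.5 and 72.8 with HDAC4 3SA, with log2 ratios of 0.02, 0.18 and -0.03. Slc6a5, which returns glycine to the endings of glycinergic neurons, had 95.2 and 85.9 FPKM, 59.2 and 60.0, and 67.7 and 52.7. Its log2 ratio of -0.36 with HDAC4 3SA was the lowest of any member at 10 FPKM or more in that vector, beside -0.15 with LacZ and 0.02 with HDAC4 wt, and was short of the fold.

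Of the GABA and betaine carriers, the astrocytic GABA transporter Slc6a11 had 161 and 156 FPKM with LacZ, 104 and 103 with HDAC4 wt, and 119 and 97.8 with HDAC4 3SA. Its log2 ratios were -0.04, -0.01 and -0.28, all within the fold. Slc6a12 and Slc6a13, which lie 5.37 kb apart on chromosome 6, were expressed far lower. Slc6a12, the betaine and GABA carrier, had 0.236 and 0.568 FPKM with LacZ, 0.351 and 0.385 with HDAC4 wt, and 0.180 and 0.278 with HDAC4 3SA, and its log2 ratio with LacZ was 0.99. That ratio depends on the added constant, at 0.34 with 1 FPKM added and 1.27 with none. Slc6a13, a GABA carrier known from the leptomeninges, was at 4.74 to 7.30 FPKM with log2 ratios of 0.24, -0.24 and -0.04.

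Other genes of transmitter handling were mostly within the fold. Of 21 genes for the synthesis, packaging and breakdown of transmitters, 0 were past the fold with LacZ, 3 with HDAC4 wt and 4 with HDAC4 3SA, with median log2 ratios of -0.02, -0.08 and -0.05. Past the fold in either direction were 8.32% of all genes with LacZ, 9.45% with HDAC4 wt and 13.9% with HDAC4 3SA. Higher and past the fold in both HDAC4 vectors were Slc18a3, the vesicular acetylcholine transporter, with log2 ratios of 1.34 and 1.25, and Slc5a7, the choline transporter, with 1.03 and 0.78, and with LacZ the same genes had 0.41 and 0.31. Slc17a7, a vesicular glutamate transporter at 0.639 and 0.112 FPKM, was past it with HDAC4 wt, and Slc18a2, the vesicular monoamine transporter, with HDAC4 3SA at a log2 ratio of 0.63. Gad1, an enzyme of GABA synthesis, went from 91.3 to 64.0 FPKM with HDAC4 3SA, a log2 ratio of -0.51. The vesicular carriers of glutamate and of GABA and glycine, Slc17a6 and Slc32a1, had log2 ratios of -0.42 and -0.29 in that vector. Beside these values, the 10 neuron markers had a median log2 ratio of -0.27 with HDAC4 3SA, with 6 lower, 4 higher and 0 past the fold, and summed levels of 2190 and 1970 FPKM, while their medians were -0.02 with LacZ and -0.05 with HDAC4 wt. Their part in the transporter values was not tested, and in bulk tissue fewer cells of a type and less RNA per cell cannot be told apart.

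Slc6 genes for neutral amino acids were a mixed group of 7. Slc6a17, a vesicular neutral amino acid transporter of neurons, had 46.9 and 47.4 FPKM with LacZ, 37.5 and 33.6 with HDAC4 wt, and 37.3 and 29.7 with HDAC4 3SA. Slc6a15, a neuronal carrier of branched-chain amino acids and proline, had 25.5 and 25.3 FPKM, 19.5 and 18.9, and 22.0 and 19.6. Slc6a7, the brain proline transporter, had 11 and 10.9 FPKM, 9.04 and 7.62, and 9.90 and 8.55. These neuronal members were lower after CFA in both HDAC4 vectors, within the fold. Slc6a7 was listed in 2 rows, and with these summed its log2 ratio with LacZ was -0.15 in place of -0.01. Slc6a20a, an imino acid transporter, had 2.55 and 4.65 FPKM with LacZ, 4.37 and 4.77 with HDAC4 wt, and 3.04 and 3.44 with HDAC4 3SA, so that only its LacZ log2 ratio of 0.84 was past the fold and those of the HDAC4 vectors were 0.12 and 0.17. The leptomeningeal fibroblast markers were higher in the same vector, all 8 of 8 with LacZ with summed levels of 175 and 239 FPKM, beside 242 and 246 with HDAC4 wt and 222 and 219 with HDAC4 3SA. All described Schwann cell, skeletal muscle and neutrophil markers were also higher with LacZ, with medians of 0.55, 1.04 and 2.99. In both HDAC4 vectors the medians of the Schwann cell, muscle and neutrophil lists were negative. The part of these cell types in the Slc6a20a value was not tested.

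The rows of 4 genes covered under 50% of the annotated exon bases of their gene (GENCODE M21, build GRCm38), and their levels may not stand for the whole gene. The row of Slc6a18, at 22.9 to 31.2 FPKM, spanned 146 bp and covered 3.30% of them. Slc6a20b, at 0.163 to 0.532 FPKM, was on a row of 558 bp that covered 6.54%, and its log2 ratios were -0.17 with LacZ, 0.58 with HDAC4 wt and -0.57 with HDAC4 3SA. The others were Slc6a16 and Slc38a6.

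Glutamine and other small neutral amino acids are carried by the Slc38 family, in which Slc38a5 gave the clearest change of the whole set. Slc38a5, at chrX:8271391-8280186, had 3.07 and 6.55 FPKM with LacZ, 4.20 and 7.16 with HDAC4 wt, and 5.32 and 8.02 with HDAC4 3SA. Every CFA value thus lay above every saline value of the 3 vectors, as it did in 2.93% of all genes and in no other member, although the vectors were scaled separately. The log2 ratios were 1.07, 0.75 and 0.58. This gene encodes a system N transporter that moves glutamine, serine and glycine. Its start region is among those printed above.

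The more abundant members of the family moved little. Slc38a1, a neuronal glutamine transporter, had 53.4 and 50.1 FPKM, 44.2 and 42.2, and 47.5 and 41.4. Slc38a2, which amino acid shortage is known to induce, had 44.8 and 46.3 FPKM, 38.7 and 43.8, and 45.2 and 43.4. Slc38a3, the astrocytic system N carrier, had 27.1 and 26.0 FPKM, 31.4 and 34.8, and 29.2 and 32.6. Slc38a10 had 26.3 and 28.4 FPKM, 29.6 and 32.4, and 28.5 and 32.8. These 4 had log2 ratios between -0.20 and 0.20 in all vectors. Of 9 described members of the role, 8 were higher after CFA with HDAC4 wt, 6 with HDAC4 3SA and 4 with LacZ, with medians of 0.12, 0.13 and -0.06. Of all genes 51.3%, 53.4% and 53.1% were higher in the same order. Slc38a7, Slc38a9 and Slc38a11 were below 10 FPKM and within the fold.

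The heavy chain Slc3a2, which carries its light chains to the cell surface, was higher after CFA in all vectors, at 40.6 and 43.2 FPKM with LacZ, 55.7 and 63.6 with HDAC4 wt, and 51.4 and 61.7 with HDAC4 3SA, with log2 ratios of 0.09, 0.19 and 0.26. The large neutral light chain Slc7a5 had 27.2 and 29.9 FPKM, 31.9 and 36.5, and 32.9 and 35.4. Slc7a10, which exchanges small neutral amino acids including D-serine, had 45.9 and 44.3 FPKM, 28.1 and 30.4, and 31.1 and 28.7. None of these 3 was past the fold. Slc7a11, the cystine and glutamate exchanger, was at 4.70 to 6.64 FPKM and had log2 ratios of -0.13, -0.16 and -0.20. The rows of Slc7a6 and Slc7a6os had the same span, 169173 bp, so the 2 genes may not be separated well.

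The light chains Slc7a7 and Slc7a8 lie 308 kb apart on chromosome 14 and were past the fold only with HDAC4 3SA, though the difference between vectors could not be tested. Slc7a7, at chr14:54360841-54414006, encodes the light chain for exchange of cationic against neutral amino acids and had 1.32 and 1.27 FPKM with LacZ, 4.03 and 4.53 with HDAC4 wt, and 3.10 and 5.37 with HDAC4 3SA. Slc7a8, at chr14:54722188-54781976, encodes a large neutral light chain and had 4.37 and 4.72 FPKM, 7.14 and 8.14, and 6.58 and 9.66. Their log2 ratios with HDAC4 3SA were 0.77 and 0.55, beside 0.17 and 0.19 with HDAC4 wt and -0.05 and 0.11 with LacZ. With 1 FPKM added, Slc7a8 fell short of the fold with HDAC4 3SA, at 0.49.

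Slc43a3, a transporter of purine nucleobases at chr2:84936605-84958509, had 1.26 and 2.08 FPKM with LacZ, 7.03 and 9.83 with HDAC4 wt, and 5.32 and 9.43 with HDAC4 3SA. Its log2 ratios were 0.68, 0.48 and 0.81, so it was higher in all vectors and past the fold with LacZ and HDAC4 3SA. With 1 FPKM added its ratio with LacZ was 0.45, short of the fold. Slc7a2, which carries arginine and other cationic amino acids and lies at chr8:40862202-40922075, had 10.9 and 12.1 FPKM, 16.7 and 23.2, and 15.7 and 22.3. Its log2 ratio was 0.15 with LacZ, 0.48 with HDAC4 wt, just short of the fold, and 0.50 with HDAC4 3SA, just past it, a call that ended when ratios were centred on the median gene over 5 FPKM or when 1 FPKM was added. Slc43a2, a large neutral amino acid carrier, was at 17.5 to 18.8 FPKM over the 6 groups.

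Microglia markers moved in the same order as Slc7a7 and Slc7a8. Their summed level was 167 and 188 FPKM with LacZ, 871 and 1100 with HDAC4 wt, and 661 and 1210 with HDAC4 3SA, with medians of 0.11, 0.28 and 0.75, and 7 of the 9 were past the fold with HDAC4 3SA and 0 in the other vectors. For Slc7a7, Slc7a8, Slc43a3 and Slc7a2 the LacZ levels were also the lowest of the 3 vectors. Both LacZ values lay below all values of the HDAC4 vectors in 16 members (33.3%), against 34.9% of all genes. The log2 ratios of Slc43a3 did not follow the microglia order, at 0.68 with LacZ, 0.48 with HDAC4 wt and 0.81 with HDAC4 3SA. Those of Slc7a2 did, at 0.15, 0.48 and 0.5. The part of microglia in these values was not tested.

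**Figure D3:**
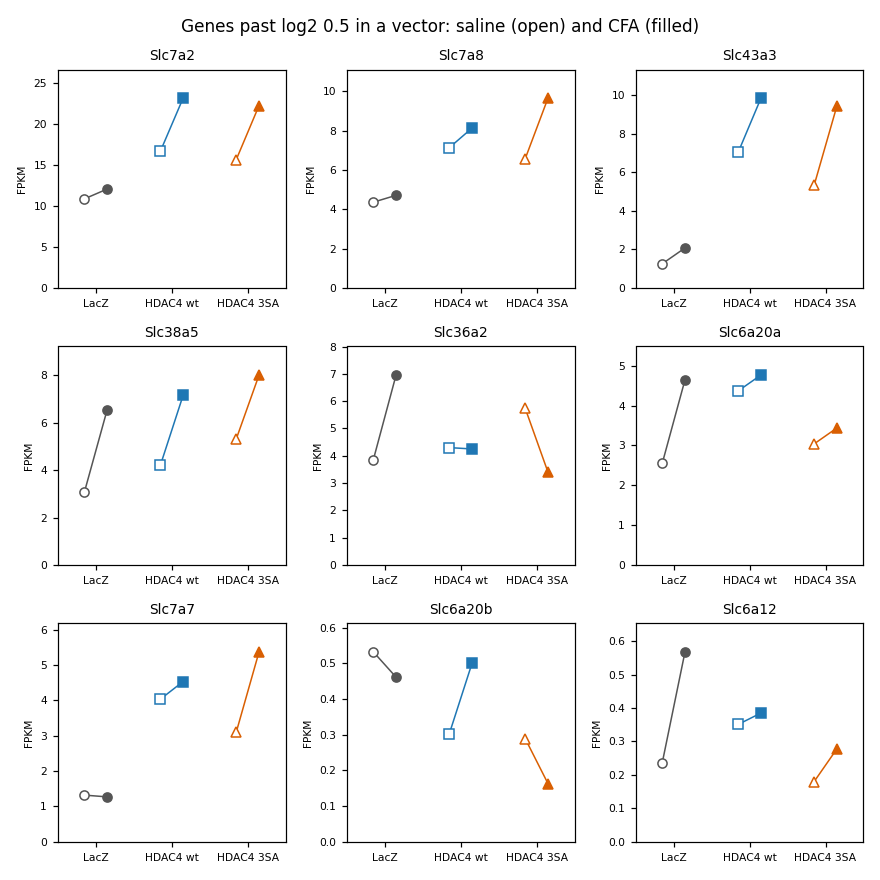
FPKM of the 9 genes past log2 0.5 in at least 1 vector, with saline as open and CFA as filled symbols joined by a line within each vector, on axes that start at 0. Each symbol is 1 group value of 3 mice without an error bar. The line of Slc38a5 climbs in all vectors, and that of Slc36a2 climbs with LacZ and descends with HDAC4 3SA.

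Other cationic transporters stayed within the fold. Slc7a1, the widely expressed arginine and lysine carrier, was at 9.47 to 10.6 FPKM. Slc7a14, a brain member of the family, had 20.7 and 20.3 FPKM with LacZ, 14.4 and 14.8 with HDAC4 wt, and 15.8 and 15.2 with HDAC4 3SA. Slc7a3 and Slc7a4 were below 10 FPKM in all groups. Among neutral exchangers, Slc1a4 had 21.9 and 21.5 FPKM, 22.1 and 24.0, and 23.7 and 25.7. Slc1a5, the glutamine exchanger of dividing cells, was lower, at 2.26 to 5.80 FPKM, with log2 ratios of 0.34, 0.21 and 0.29.

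The taurine carrier Slc6a6 had 22.1 and 21.6 FPKM with LacZ, 29.6 and 30.8 with HDAC4 wt, and 27.6 and 31.5 with HDAC4 3SA. Slc6a8, the creatine transporter, had 24.5 and 24.9 FPKM, 26.2 and 31.5, and 26.2 and 32.7. Both were higher after CFA in both HDAC4 vectors, with a largest log2 ratio of 0.32.

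Slc36a2, a proton coupled carrier of glycine, alanine and proline at chr11:55158376-55185071, went in opposite directions between vectors. It had 3.85 and 6.96 FPKM with LacZ, 4.30 and 4.25 with HDAC4 wt, and 5.74 and 3.40 with HDAC4 3SA, with log2 ratios of 0.84, -0.02 and -0.74. Schwann cell markers had the same order, with medians of 0.55, -0.04 and -0.42 over 6 genes and summed levels of 288 and 429 FPKM with LacZ, 297 and 305 with HDAC4 wt, and 398 and 278 with HDAC4 3SA. The part of Schwann cells in the Slc36a2 values was not tested. Its neighbour Slc36a1, 19.3 kb away and a lysosomal amino acid carrier, had 20.3 and 19.5 FPKM, 15 and 15.1, and 16.7 and 16.3, and Slc36a4 had 21.2 and 20.7, 18.4 and 17.3, and 20.1 and 18.0.

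**Figure D4:**
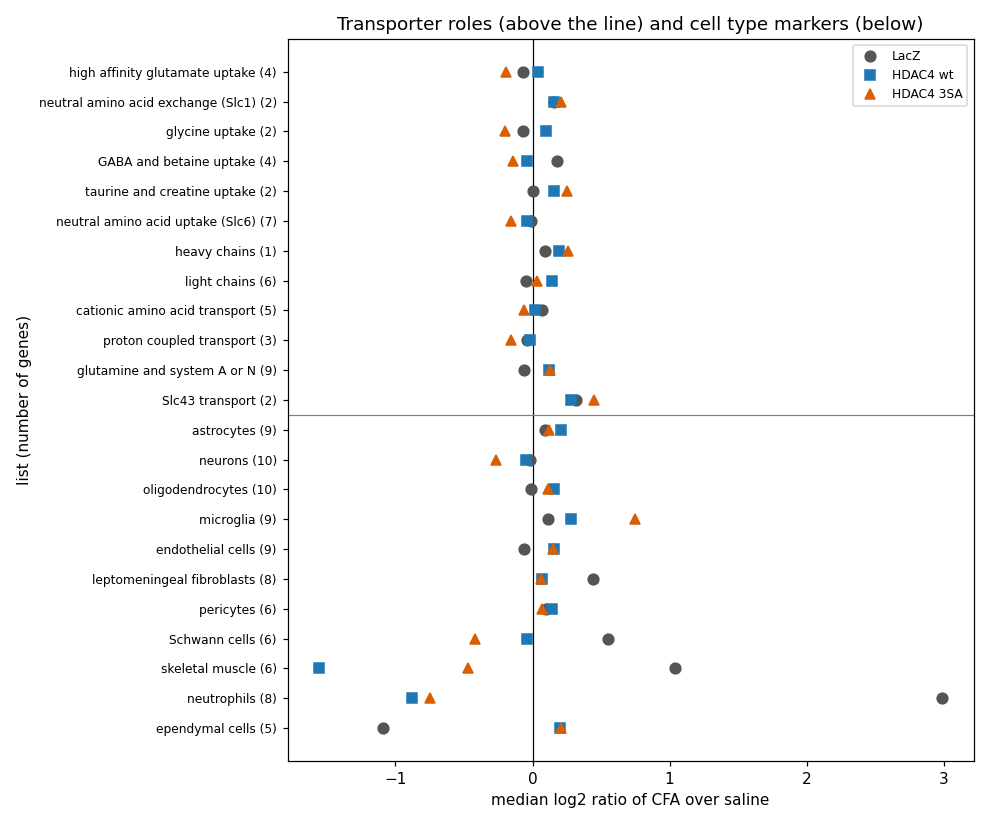
Median log2 ratio of CFA over saline for each transporter role, above the grey line, and for each cell type marker list, below it, 1 symbol per vector, with the number of genes in parentheses. Medians have no error bar, and all role medians lie between -0.20 and 0.45, while the marker lists span -1.56 to 2.99.

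Other marker lists also moved with the vector. Neutrophil markers had medians of 2.99 with LacZ, -0.88 with HDAC4 wt and -0.75 with HDAC4 3SA, and skeletal muscle markers had 1.04, -1.56 and -0.47, at summed levels of 12.8 to 127 FPKM and 2.37 to 54.5 FPKM over the 6 groups. All 8 neutrophil markers were higher with LacZ, while 7 were lower with HDAC4 wt and 6 with HDAC4 3SA. Lcn2 went the other way in the HDAC4 vectors, with log2 ratios of 3.00, 1.63 and 1.62. Ependymal markers had medians of -1.09, 0.20 and 0.21. The lists for astrocytes, oligodendrocytes, endothelial cells and pericytes had medians between -0.06 and 0.21. All 10 neuron markers and 9 of 10 astrocyte markers were described, at summed levels of 1930 to 2930 FPKM and 1020 to 1750 FPKM. No described transporter was listed at 0. Hdac4, the gene of the cargo, had 7.41 and 7.72 FPKM with LacZ, 10.1 and 10.8 with HDAC4 wt, and 8.86 and 8.81 with HDAC4 3SA, and whether its row counts the cargo is not given in the sources used here.

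Summed over the 48 genes without Slc1a1, the set had 1340 and 1340 FPKM with LacZ, 1180 and 1250 with HDAC4 wt, and 1240 and 1190 with HDAC4 3SA. Glutamate carriers made up 16.6% to 17.7% of this sum over the 6 groups, glycine carriers 10.5% to 14.1%, and glutamine and system A or N carriers 12.4% to 14.5%.

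Levels with LacZ were also set beside those of both HDAC4 vectors. Both LacZ values lay above all 4 values of the HDAC4 vectors in 16 of 48 genes (33.3%), against 20.3% of all genes, and below all 4 in 16 (33.3%), against 34.9%. The tables of the 3 vectors were normalised separately, so this sets levels of separate tables side by side, and the share below is near that of all genes. Above were Slc1a1, Slc1a2 and Slc1a3, both glycine carriers, Slc6a11, Slc6a7, Slc6a15, Slc6a16 and Slc6a17, Slc7a4, Slc7a10, Slc7a14, Slc36a1, Slc36a4 and Slc38a1. Below were Slc3a2, Slc7a2, Slc7a3, Slc7a5, Slc7a7, Slc7a8, Slc1a4, Slc1a5, Slc6a6, Slc6a8, Slc38a3, Slc38a6, Slc38a10, Slc38a11, Slc43a3 and Slc7a6os. The largest separation as a ratio, though not in FPKM, was that of Slc43a3, with 1.26 and 2.08 FPKM with LacZ and 5.32 to 9.83 FPKM in the HDAC4 vectors. Neuron markers stood at 2930 and 2900 FPKM with LacZ and at 1930 to 2190 in the HDAC4 vectors. The neuron sum was led by Snap25, at 1230 and 1130 FPKM with LacZ and 646 to 861 in the HDAC4 vectors. Nefl, Stmn2, Map2, Tubb3, Uchl1 and Elavl4 also had both LacZ values above those of the HDAC4 vectors. Rbfox3 and Syt1 overlapped, and Nefm had both LacZ values below. Microglia markers stood at 167 and 188 FPKM with LacZ and at 661 to 1210 in the HDAC4 vectors, and astrocyte markers at 1020 and 1070 with LacZ and at 1430 to 1750. The astrocyte sum was led by Gfap, at 389 and 415 FPKM with LacZ and 805 to 1090 in the HDAC4 vectors. Aqp4, Aldh1l1 and Sox9 also had both LacZ values below those of the HDAC4 vectors. In contrast, Gja1, S100b, Gjb6 and Agt had both LacZ values above those of the HDAC4 vectors, and Fgfr3 overlapped. The part of these cell types in the levels was not tested.

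A list of 14 genes for the response to amino acid shortage, which holds the transcription factor ATF4 and genes tied to it, gave 2 genes past the fold with LacZ, 0 with HDAC4 wt and 2 with HDAC4 3SA, where 8.32%, 9.45% and 13.9% of all genes were past it. Nupr1, a stress induced cofactor, was past it with LacZ and HDAC4 3SA with log2 ratios of 0.68 and 1.06, Trib3 with LacZ with 0.52, and Atf3, a stress induced transcription factor, with HDAC4 3SA with 1.05. Asns, the asparagine synthetase gene, had log2 ratios of -0.03, -0.11 and -0.14, and Atf4 itself had 0.01, -0.02 and 0.01. The medians of the list were 0.09, 0.06 and 0.16.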

How the data were processed

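Dorsal spinal cord RNA of 18 mice was measured by strand-specific poly-A sequencing. The authors aligned reads with TopHat and Bowtie to mouse build GRCm38 (mm10), and Cufflinks and Cuffdiff gave the deposited FPKM values, 1 value per group of 3 mice in 3 tables, 1 per vector. Depth per sample is not given in these tables, so no interval or detection floor is stated. The tables also hold the authors' fold changes, test statistics, p and q values and status, which were not used.

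The 3 tables of 34579 rows were joined by row identifier, and 386 rows whose places did not overlap were left out, among them Slc6a19. For each gene name the row with the highest mean FPKM over the 6 values was kept, and 16 described genes had more than 1 row. Log2 ratios used 0.1 FPKM added to both values, a level of 0.5 FPKM in a group, and 0.5 as the limit of the fold, as the study's methods set it. Named with values were genes at 10 FPKM in a group and genes past the fold, except 1 member that is not reported here and enters only counts, medians and sums. No test was made, since the values are means of groups, and the counting was tested on simulated data. Roles, pathway lists and markers are hand-written lists. The members and lists were chosen with earlier results of these data known. Exon cover used GENCODE M21, similarity blastn 2.17.0, and file starts were written 1 higher. Alternatives were another added value, centring, summing of rows, other minimum levels and other limits. Analyses ran in Python 3.11.15 with pandas 2.3.3 and numpy 2.4.6.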

Additional observations from a re-analysis of the deposited data

Results flagged for a closer look

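Slc36a2 and Slc6a20b were past the fold in opposite directions between vectors. Slc36a2 had a log2 ratio of CFA over saline of 0.84 with LacZ, -0.02 with HDAC4 wt and -0.74 with HDAC4 3SA. Slc6a20b had -0.17 with LacZ, 0.58 with HDAC4 wt and -0.57 with HDAC4 3SA, at levels of at most 0.532 FPKM on a row that covers 6.54% of its exon bases. These differences between vectors were not tested, because each group has a single value.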

How the results depend on the processing

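No paired analysis was possible because the tables hold 1 value per group of 3 mice, and for the same reason no mouse could be left out and no replicate block could be fitted. With 1 FPKM added in place of 0.1, genes past the fold numbered 3 with LacZ, 1 with HDAC4 wt and 4 with HDAC4 3SA, and the median of the Slc43 role with LacZ was 0.20. With no minimum level LacZ had 8, and the Slc43 medians were 0.67, 0.09 and 0.08 with LacZ, HDAC4 wt and HDAC4 3SA, since Slc43a1 then entered. With a minimum of 1 FPKM, and with rows covering at least 50% of exon bases (chosen after seeing the data), HDAC4 wt had 1. A limit of 0.3 gave 4 with HDAC4 wt and 13 with HDAC4 3SA, and a limit of 1 gave 1 with LacZ, 0 with HDAC4 wt and 0 with HDAC4 3SA. Without Slc1a1 (also chosen after seeing the data), the glutamate carriers summed to 239 and 225 FPKM with LacZ, 196 and 215 with HDAC4 wt, and 213 and 203 with HDAC4 3SA. With 1 FPKM added, Slc43a3 and Slc6a12 with LacZ and Slc7a2 and Slc7a8 with HDAC4 3SA were no longer past the fold, at 0.45, 0.34, 0.48 and 0.49, and neither were the values of Slc6a20b, at 0.20 and -0.15. Subtracting the median ratio of genes over 5 FPKM also took Slc7a2 with HDAC4 3SA to just short of the fold and left 4 genes higher there, and with no FPKM added Slc6a12 passed it with HDAC4 3SA, at 0.63. Summing of rows took Slc6a7 with LacZ from -0.01 to -0.15 and Slc1a6 with HDAC4 wt from -0.19 to -0.08. No named gene past the fold changed direction under the alternatives run. Medians of all members and the count of genes with 1 direction in all vectors moved by less than 0.1 and less than 1.5 times. Without values per mouse the spread between mice cannot be set against any of these differences.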
